A study of Mus musculus with 18 samples.

Results

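Transcripts of tubulin isoforms and of the enzymes that take the last tyrosine off alpha-tubulin and put it back were followed in the left ventricle of mice labelled as knockouts (KO) of MLP and of wild-type (WT) mice. The set holds 10 of the 49315 genes in each count table and was chosen by gene symbol. It has 3 alpha-tubulins (Tuba1a, Tuba4a and Tuba8), 5 beta-tubulins (Tubb2a, Tubb2b, Tubb3, Tubb4b and Tubb6), the detyrosinating enzyme Vash1 and the tubulin tyrosine ligase Ttl. All 10 passed the filter on low counts, Tubb3 only narrowly.

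The 18 libraries were sequenced from RNA of the mid wall of the left ventricle of male mice whose strain is labelled 129SVE background. The KO groups were 3, 6 and 10 weeks old and the WT groups had the same ages, with 3 libraries in each of the 6 groups. MLP stands for muscle LIM protein, which Csrp3 encodes and which sits at the Z-disc of striated muscle; its loss in mice leads to dilated cardiomyopathy. The labels name no allele, promoter, littermate status or treatment, and they number the libraries without stating that each came from its own animal. The p-values therefore measure the spread between these samples, which may be technical.

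Microtubules are built from dimers of alpha- and beta-tubulin, and each subunit is encoded by several genes. Vasohibin 1, the product of Vash1, removes the C-terminal tyrosine of alpha-tubulin together with its small partner Svbp, and the ligase encoded by Ttl restores it. In cardiomyocytes, detyrosinated microtubules bind to the desmin cytoskeleton and resist the shortening of the sarcomere, and they are known to be more abundant in failing human hearts. The measurements here are of messenger RNA only, so they hold no value for the tyrosinated or detyrosinated protein. In bulk tissue, fewer cells of a type and less RNA per cell cannot be told apart.

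The alpha-tubulin genes differ in the codon for the last residue, and these enzymes act on a last tyrosine. The last 8 sense codons and the stop codon of 4 alpha-tubulin genes are shown for that reason. They were read from the GRCm38 genome with GENCODE M21 and are printed 5′ to 3′ on the coding strand. Gene positions elsewhere are those of the count tables, on the same build. Capitals mark the last sense codon.
Tuba1b, chr15:98931582-98931608, minus strand: ggggaggaagaaggagaggagTACtaa
Tuba1c, chr15:99037983-99038009, plus strand: ggagacgatgagggtgaggaaTATtaa
Tuba4a, chr1:75215622-75215648, minus strand: gaggacgaggatgagggagaaGAGtag
Tuba8, chr6:121226053-121226079, plus strand: gaagagaatgagggggaggaaTTTtaa
TAC and TAT encode tyrosine, so the reading frames of Tuba1b and Tuba1c end with the residue that Vash1 removes. Tuba1a, whose end is not printed, has a last tyrosine codon as well. The frame of Tuba4a ends with GAG, a glutamate codon, and that of Tuba8 with TTT, a phenylalanine codon. All of these stretches lie in coding exons and carry several glutamate codons (GAG or GAA) before the last codon.

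Library totals ran from 14980968 to 23001047 counts. Levels are given as CPM, TMM-scaled counts relative to the library total, and as RPKM, which divides CPM by gene length in kilobases, where genes are compared with each other. Mitochondrially encoded genes took 7.50% to 10.9% of the counts in KO libraries and 11% to 16.8% in WT libraries. Csrp3, the gene named by the knockout label, was not lower in KO and was called higher at 10 weeks (1.29, SE 0.30, adjusted p = 0.0041). It had 1134, 2703 and 1510 CPM at 3 weeks, 2483, 1821 and 1792 CPM at 6 weeks and 2777, 3416 and 1501 CPM at 10 weeks in KO. In WT it had 1005, 951 and 1111 CPM, 1486, 1230 and 1392 CPM and 1001, 1124 and 1018 CPM at the same ages. Counts over the whole gene do not show whether protein is made, so KO and WT here mean libraries labelled so. The 10 cardiomyocyte markers were all detected and summed to 94400 to 139300 CPM in KO and 76090 to 106300 CPM in WT. Of 5 atrial markers, Bmp10 was at 0 in 5 of the 6 groups, but KO replicate 3 at 3 weeks, KO replicate 3 at 6 weeks and KO replicate 1 at 10 weeks stood apart with 118.5, 436 and 1145 CPM of the atrial light chain gene Myl4. The other 15 libraries had at most 23.2 CPM of Myl4. Of these, KO replicate 3 at 6 weeks and KO replicate 1 at 10 weeks belong to the high ones and also held fat cell transcripts. They had 11.1 and 13.5 CPM of Adipoq and 9.91 and 14.7 CPM of Plin1, while no other library exceeded 0.892 CPM of Adipoq. Calls of the 10 members that change without the 3 libraries high in Myl4 are given with both values. For the other genes named, the marker sums and the shares of the tubulin sums, values without these libraries were not computed.

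At 3 weeks, 5 of the 10 genes were higher in KO and none was lower, at an adjusted p under 0.05 in edgeR's quasi-likelihood test. Those 5 were Tuba1a, Tuba8, Tubb2a, Tubb2b and Tubb6. Across all 15778 genes tested, 15.3% were called at that age and 8.65% were higher in KO. The count of 5 members became 3 without WT replicate 1 or WT replicate 2 and 2 without KO replicate 2, and the 2419 genes called became 1309 without WT replicate 1 and 1593 without WT replicate 2. At 6 weeks only Tuba4a was called, lower in KO, where 23.8% of all genes were called and 12.8% were lower. At 10 weeks only Tubb2a was called, higher in KO, where 29.3% of all genes were called and 14.6% were higher. Without KO replicate 3 of that age 4 members were called, the others being Tubb2b, Tubb4b and Tubb6. Without WT replicate 3 or KO replicate 1 there were 2. The other member was then Tuba8 without WT replicate 3 and Tubb4b without KO replicate 1. At 6 and 10 weeks the shares of members called were below those of all genes. The median log2 fold change of the 10 members was 0.50, -0.07 and 0.22 at 3, 6 and 10 weeks, against 0.00, 0.00 and -0.03 for all genes. At 3, 6 and 10 weeks, 6, 4 and 2 members had groups without overlap, against 30.5%, 44.2% and 40.5% of all genes. Tubb3, with 1 to 16 counts a library, was among these members at 3 and 6 weeks.

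**Figure D1:**
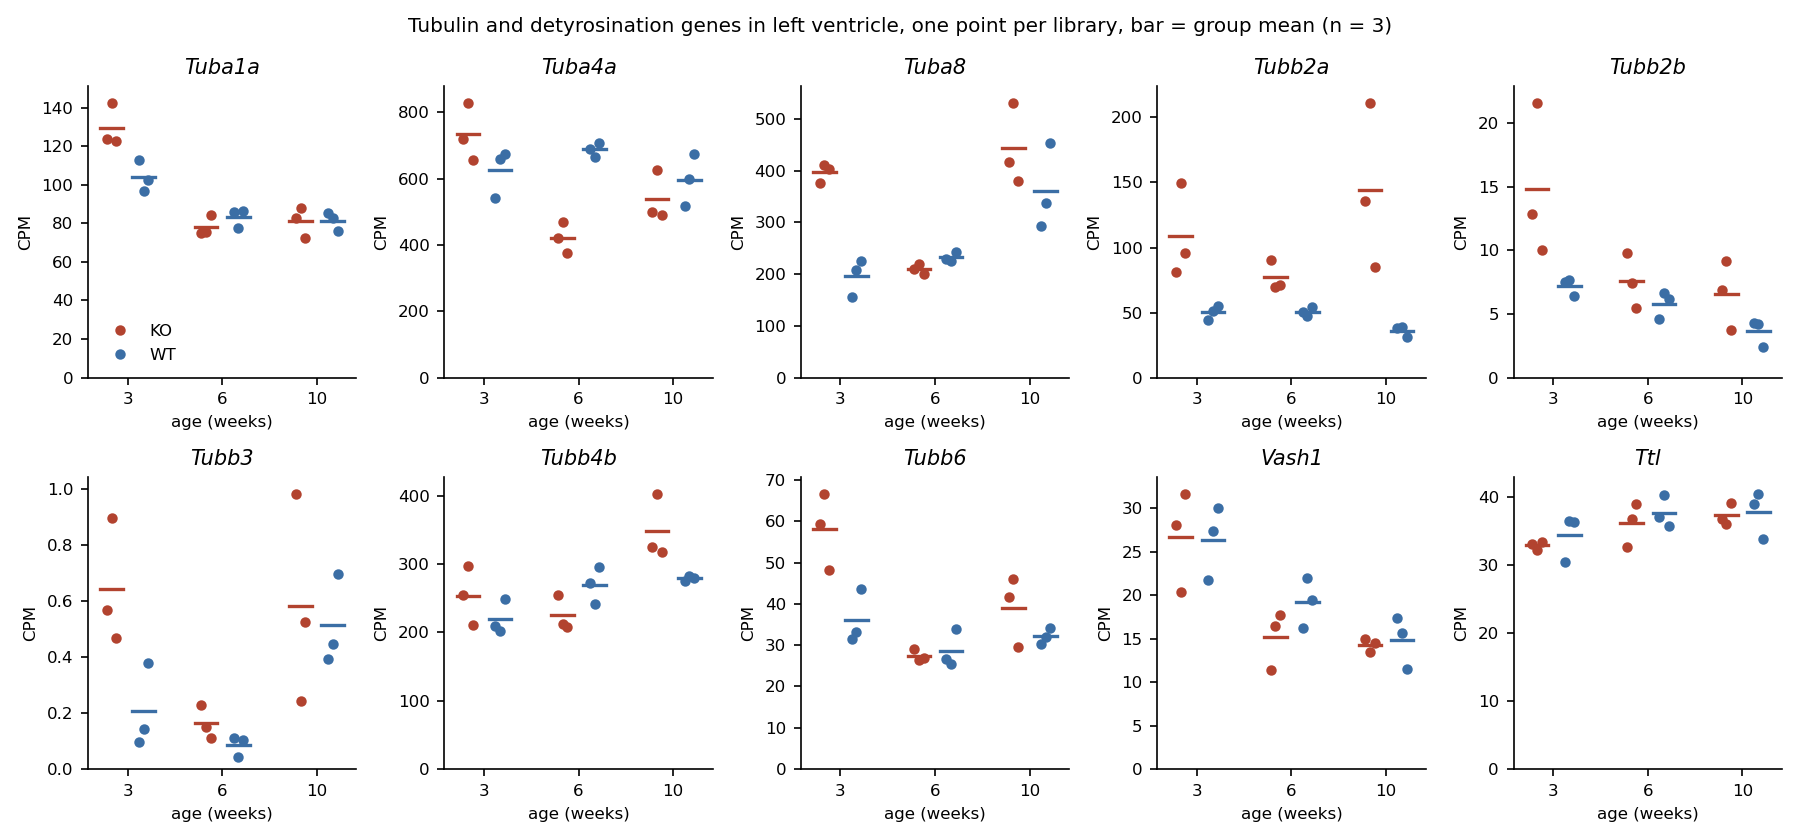
CPM of the 10 genes in every library (y axis, linear, from 0) by age in weeks (x axis), with KO points left of WT points and a bar at each group mean of 3 libraries. Tuba8 and Tubb6 stand apart from WT at 3 weeks, Tuba4a at 6 weeks and Tubb2a at all 3 ages, while Ttl stays between 30.3 and 40.4 CPM throughout.

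Tuba8 (ENSMUSG00000030137, chr6:121210696-121226854, plus strand), an alpha-tubulin with a restricted tissue range that includes heart and skeletal muscle, was the alpha-tubulin with the largest difference at 3 weeks. It had 376, 412 and 403 CPM in KO, against 156, 207 and 225 CPM in WT. Every KO library was above every WT library, and the spread among the 3 KO values was small. The log2 fold change was 1.02 (SE 0.15, adjusted p = 8.1e-05), and the call held without any 1 of the 6 libraries (largest adjusted p = 9.3e-04, edgeR). At 6 weeks the groups were close. Tuba8 had 210, 220.1 and 199 CPM in KO and 229.7, 225 and 243.5 CPM in WT, a log2 fold change of -0.15 (SE 0.15, adjusted p = 0.525) with a 95% interval of -0.46 to 0.16. The groups did not overlap there, with KO slightly lower, but the difference did not pass the test. At 10 weeks it had 417, 532 and 380.4 CPM in KO and 293, 337 and 455 CPM in WT, and these values overlapped. Their log2 fold change of 0.29 (SE 0.15, adjusted p = 0.149) did not pass. It passed without WT replicate 3 of that age (0.51, adjusted p = 0.0168, edgeR).

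The genotype effect on Tuba8 itself differed between ages. The log2 effect at 6 weeks minus that at 3 weeks was -1.17 (SE 0.21, adjusted p = 0.00742), in a test in which 1.59% of all genes were called and 1.10% were lower. That call held without any 1 of the 12 libraries (largest adjusted p = 0.0339) and without the 3 libraries rich in atrial transcripts (adjusted p = 0.0408). The effect at 10 weeks minus that at 3 weeks was -0.73 (SE 0.21, adjusted p = 0.0465), where 5.76% of all genes were called and 2.94% were lower. That second call held only without WT replicate 3 at 3 weeks, WT replicate 1 at 10 weeks or KO replicate 2 at 10 weeks. It was lost in the other 9 of 12 fits that left out 1 library, with adjusted p up to 0.177 (without WT replicate 3 at 10 weeks), and without the 3 atrial-rich libraries (-0.64, adjusted p = 0.159). The gene overlaps an antisense gene, Gm15856, whose exons account for nearly all of the 14.7% of Tuba8 50-base stretches that are also found elsewhere. Gm15856 had a mean of only 17.8 counts a library.

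Tuba4a (ENSMUSG00000026202, chr1:75214228-75219865, minus strand), an alpha-tubulin whose message, like that of Tuba8, has no last tyrosine codon, was called lower in KO at 6 weeks and at no other age. At 3 weeks it had 718.5, 830 and 657 CPM in KO and 541, 660.2 and 673 CPM in WT. The groups overlapped and the log2 fold change of 0.23 (SE 0.13, adjusted p = 0.228) did not pass. At 6 weeks it had 421, 469 and 377 CPM in KO, against 691, 666 and 708 CPM in WT. All 3 KO libraries were well below the lowest WT library. The log2 fold change was -0.70 (SE 0.13, adjusted p = 2.8e-04), and the call held without any 1 of the 6 libraries (largest adjusted p = 0.00353) and without the 3 atrial-rich libraries (-0.62, adjusted p = 0.0032). At 10 weeks, with 501, 625 and 489.9 CPM in KO and 519, 598 and 673 CPM in WT, the groups overlapped again, and the log2 fold change was -0.15 (SE 0.13, adjusted p = 0.417).

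The genotype effect on Tuba4a at 6 weeks minus that at 3 weeks was -0.94 (SE 0.18, adjusted p = 0.00941), a call that held in all 12 fits that left out 1 library (largest adjusted p = 0.0386). The change from 6 to 10 weeks in that effect, 0.56 (SE 0.18, adjusted p = 0.0693), did not pass. Tuba4a overlaps Stk16 on the opposite strand, and 34.6% of the 50-base stretches of its exons occur in Stk16 as well. Stk16 had a mean of 595 counts a library, while Tuba4a had between 6804 and 16418. Whether the counting used strand is not given in the sources used here, so reads in the overlap cannot be assigned with certainty.

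Tuba1a (ENSMUSG00000072235, chr15:98949841-98953551, minus strand), the main alpha-tubulin of developing neurons that is also expressed in many other tissues, had 124, 143 and 122 CPM in KO at 3 weeks, against 113, 96.5 and 103 CPM in WT. The groups did not overlap, and the log2 fold change was 0.32 (SE 0.10, adjusted p = 0.0389). This small difference lost its call without WT replicate 2 (adjusted p = 0.152), WT replicate 3 (0.0781) or KO replicate 2 (0.172). It was also lost with library totals in place of TMM (0.0686), with no filter on low counts (0.109) and in a fit to the 3-week libraries alone (0.132). At 6 weeks Tuba1a had 74.8, 75.3 and 84.5 CPM in KO and 85.75, 77.4 and 86.6 CPM in WT, and at 10 weeks 82.6, 88.1 and 72.4 CPM in KO and 85.1, 82.65 and 75.9 CPM in WT. The groups overlapped at both of these ages, with 95% intervals of the log2 fold change of -0.30 to 0.12 and -0.22 to 0.21. Of the 50-base stretches of Tuba1a, 75.5% occur in other annotated genes, 46.9% in Tuba1c alone. How reads with several matches were counted is not given in the sources used here, so the split between Tuba1a and its relatives is uncertain.

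Tubb2a (ENSMUSG00000058672, chr13:34074301-34078008, minus strand), a beta-tubulin that in the adult is best known from neurons, was the member with the largest difference that passed at any age. At 3 weeks it had 81.4, 149.7 and 96.1 CPM in KO, against 44.2, 51.5 and 55.4 CPM in WT. At 6 weeks it had 90.4, 69.7 and 71.45 CPM in KO and 50.2, 47.7 and 54.2 CPM in WT. At 10 weeks it had 136, 211.5 and 85.15 CPM in KO, against 37.8, 39.03 and 30.97 CPM in WT. At every age the lowest KO library was above the highest WT library, and the KO libraries spread far more widely than the WT libraries at 3 and 10 weeks. On the log2 scale, KO over WT was 1.11 (SE 0.27, adjusted p = 0.0116) for the youngest mice. It was 0.61 (SE 0.27, adjusted p = 0.121) at 6 weeks, which did not pass, and 2.005 (SE 0.28, adjusted p = 6.6e-05) at 10 weeks.

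The call of Tubb2a at 10 weeks held without any 1 library (largest adjusted p = 8.0e-04) and without the 3 atrial-rich libraries (2.07, adjusted p = 9.4e-04). At 3 weeks it was lost without WT replicate 1 (adjusted p = 0.065) or KO replicate 2 (0.0543), the KO library with the highest value. At 6 weeks the difference did not pass in the fit to all 18 libraries but passed with library totals in place of TMM (0.69, adjusted p = 0.0476), with no filter on low counts (0.60, adjusted p = 7.1e-05) and in a fit to the 6-week libraries alone (0.60, adjusted p = 6.0e-04). The genotype effect was larger at 10 than at 6 weeks by 1.40 (SE 0.38, adjusted p = 0.0443), where 5.75% of all genes were called and 3.12% were higher. This held only without KO replicate 3 at 10 weeks and was lost in the other 11 of 12 fits that left out 1 library, with adjusted p up to 0.113 (without KO replicate 2 at 6 weeks), and without the 3 atrial-rich libraries (adjusted p = 0.129). Whether the effect at 10 weeks exceeds that at 3 weeks was tested too, and the difference of 0.89 (SE 0.38, adjusted p = 0.202) did not pass.

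The window from 250 bases before to 50 bases after the annotated start of Tubb2a is shown because this gene had the largest called difference. It is RefSeq's sequence for GRCm38.p6, minus strand, chr13:34077959-34078258, with TGACGTCA (the cAMP response element) and TATAAA (the TATA box) in capitals.
Tubb2a: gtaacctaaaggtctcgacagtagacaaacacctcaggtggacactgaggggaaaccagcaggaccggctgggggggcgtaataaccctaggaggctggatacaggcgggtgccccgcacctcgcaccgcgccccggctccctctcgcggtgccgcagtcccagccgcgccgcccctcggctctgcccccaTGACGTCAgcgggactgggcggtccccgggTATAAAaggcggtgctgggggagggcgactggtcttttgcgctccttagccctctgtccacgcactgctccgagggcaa
Of 32851 RefSeq promoter windows of this length, 1.79% hold TGACGTCA and 13.6% hold TATAAA, searched on both strands. Promoter windows were at hand for 8 of the 10 members, all but Tubb2b and Tubb6. Among those 8, only Tubb2a held TGACGTCA, and Tubb2a and Tubb4b held TATAAA. The letters of the MCAT element, CATTCC, were in none of the 8 and in 14.7% of all windows. The E-box CAGCTG was in Ttl alone and in 16.3% of all windows. Such matches describe letters in a window and do not show that a factor binds there.

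Tubb2b (ENSMUSG00000045136, chr13:34127008-34130354, minus strand), a beta-tubulin of developing brain that lies beside Tubb2a on chromosome 13, had 12.9, 21.6 and 10.01 CPM in KO at 3 weeks, against 7.48, 7.69 and 6.40 CPM in WT. All KO libraries were above all WT libraries, and KO replicate 2 was the highest, as it was for Tubb2a. The log2 fold change of 1.04 (SE 0.31, adjusted p = 0.0298) lost its call without any 1 of the 3 WT libraries (adjusted p between 0.0714 and 0.0919) and without KO replicate 2 (0.67, adjusted p = 0.166). At 6 weeks Tubb2b had 9.79, 7.43 and 5.48 CPM in KO and 4.62, 6.62 and 6.14 CPM in WT, and at 10 weeks 6.875, 9.19 and 3.735 CPM in KO and 4.29, 4.20 and 2.38 CPM in WT. The groups overlapped at both ages, and the log2 fold changes were 0.38 (SE 0.32, adjusted p = 0.439) and 0.86 (SE 0.34, adjusted p = 0.0637). The value at 10 weeks did not pass in 6 of 9 other settings or in 5 of 6 fits that left out 1 library. Among the fits in which it passed were those without KO replicate 3 (1.17, adjusted p = 0.00778) and in DESeq2 (0.90, adjusted p = 0.0299). The coding sequences of Tubb2a and Tubb2b are 96.5% identical, differing at 47 of 1338 bases, and 31.3% of the 50-base stretches of Tubb2b occur in Tubb2a. The share of Tubb2b counts that comes from Tubb2a messages was not tested.

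Tubb6 (ENSMUSG00000001473, chromosome 18, plus strand), a beta-tubulin that is expressed in many tissues and is known to rise in dystrophic skeletal muscle, had 59.3, 66.6 and 48.3 CPM in KO at 3 weeks, against 31.6, 33.3 and 43.5 CPM in WT. The groups did not overlap. The log2 fold change was 0.69 (SE 0.16, adjusted p = 0.00502), and it held without any 1 library (largest adjusted p = 0.04). At 6 weeks it had 29.1, 26.5 and 26.9 CPM in KO and 26.7, 25.4 and 33.8 CPM in WT, and at 10 weeks 41.7, 45.9 and 29.6 CPM in KO and 30.4, 31.9 and 34.2 CPM in WT. Both pairs overlapped, and neither passed: -0.06 (SE 0.16, adjusted p = 0.843) and 0.28 (SE 0.16, adjusted p = 0.199) on the log2 scale. The value at 10 weeks passed without KO replicate 3 (0.47, adjusted p = 0.0214). The 50-base stretches of Tubb6 in GENCODE M21 occur in no other annotated gene. The genotype effect at 6 against 3 weeks, -0.74 (SE 0.22, adjusted p = 0.0923), did not pass.

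Tubb4b (ENSMUSG00000036752, chr2:25222160-25224702, minus strand), a beta-tubulin of cilia and of most tissues, was the most abundant beta-tubulin. It had 254, 297 and 211 CPM in KO and 209.6, 202 and 249 CPM in WT at 3 weeks, 255, 212 and 207.5 CPM in KO and 272, 241 and 296 CPM in WT at 6 weeks. At 10 weeks it had 325, 402.5 and 318 CPM in KO and 276, 283 and 280 CPM in WT, and there alone every KO library was above every WT library. The log2 fold changes of 0.21 (SE 0.13, adjusted p = 0.308), -0.26 (SE 0.13, adjusted p = 0.154) and 0.32 (SE 0.13, adjusted p = 0.0696) did not pass. The last of these passed without the 3 atrial-rich libraries (0.39, adjusted p = 0.037), without KO replicate 3 of that age (0.40, adjusted p = 0.0338) and in DESeq2 (0.35, adjusted p = 0.0405). Of its 50-base stretches, 41.3% occur in other annotated genes, 32.4% in the pseudogene Tubb4b-ps1, so its counts are uncertain to that extent.

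Tubb3 (ENSMUSG00000062380, chr8:123411424-123422015, plus strand), the beta-tubulin of neurons, had 1 to 16 counts a library and 4 of 18 libraries at or above the filter's 0.523 CPM, which is taken before TMM scaling. Those libraries were KO replicates 1 and 2 at 3 weeks, and KO replicate 1 and WT replicate 3 at 10 weeks. No group had all of its libraries at or above the filter. Comparisons with those groups, the KO group at 3 weeks above all, are therefore not independent of the filter. Tubb3 had 0.569, 0.896 and 0.468 CPM in KO at 3 weeks, against 0.0971, 0.142 and 0.380 CPM in WT, which do not overlap. The log2 fold change of 1.67 (SE 0.60, adjusted p = 0.0656) did not pass, although it did without WT replicate 3 (adjusted p = 0.0304), and those at 6 and 10 weeks were 0.92 (SE 0.83, adjusted p = 0.476) and 0.17 (SE 0.55, adjusted p = 0.855). Of 11 neuron markers, Snap25 and Syt1 were at 0 in every WT library, and 4 passed the filter, of which 1 was higher and 1 lower in KO at each age. The list summed to 14.1 to 22.4 CPM in KO and 10.2 to 15.6 CPM in WT. Within it, Uchl1 averaged 12.6, 17.1 and 13.8 CPM in KO and 4.27, 3.97 and 4.54 CPM in WT at 3, 6 and 10 weeks. Dbh went the other way, with 2.93, 1.01 and 0.391 CPM in KO and 7.88, 9.52 and 7.72 CPM in WT. The median log2 fold change of the 4 tested markers was -1.26, -1.67 and 0.115, so the sum does not show a shared direction.

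**Figure D2:**
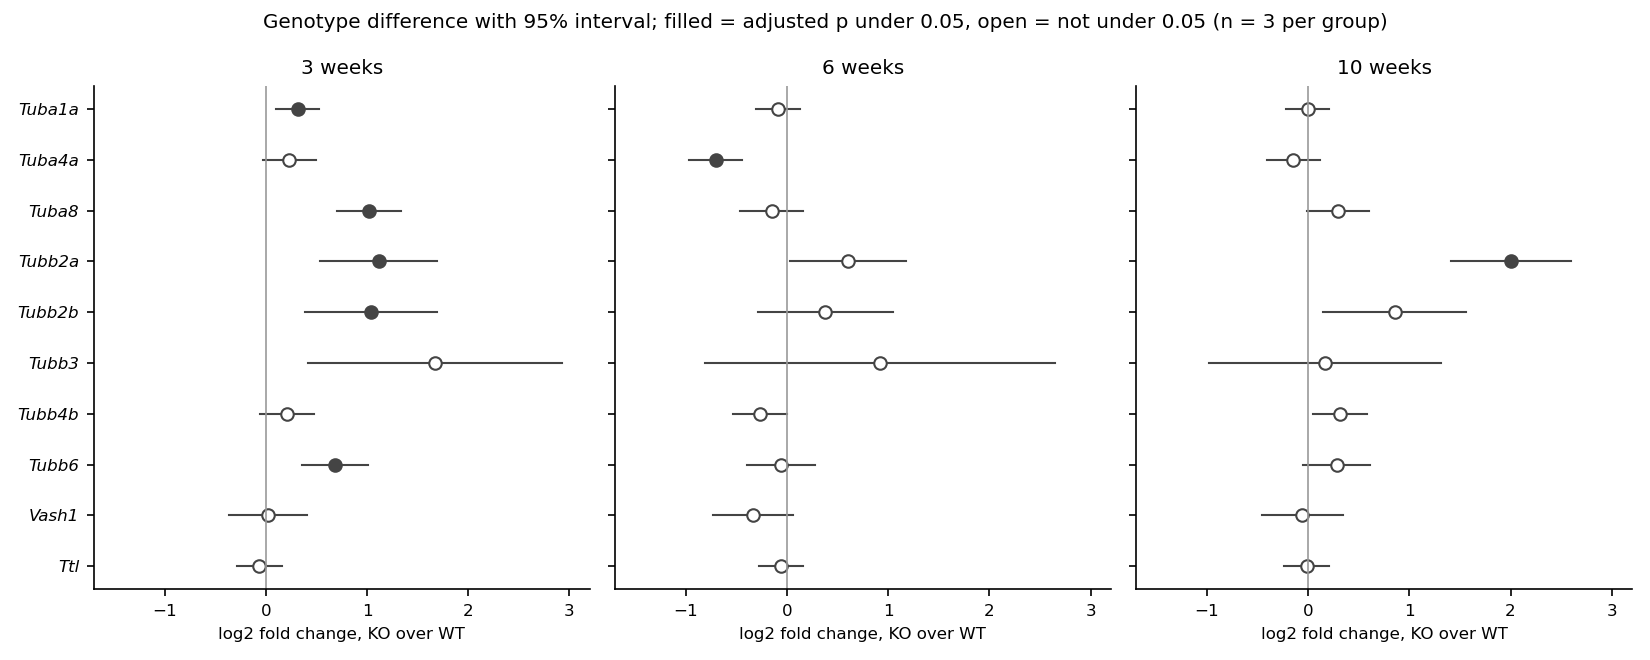
Log2 fold change of KO over WT (x axis) with its 95% interval for each gene at 3, 6 and 10 weeks, from 3 libraries a group; filled points passed an adjusted p of 0.05 and open points did not. At 3 weeks 5 filled points lie right of 0, at 6 weeks Tuba4a lies left of it at -0.70, and at 10 weeks Tubb2a lies at 2.005.

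**Figure D3:**
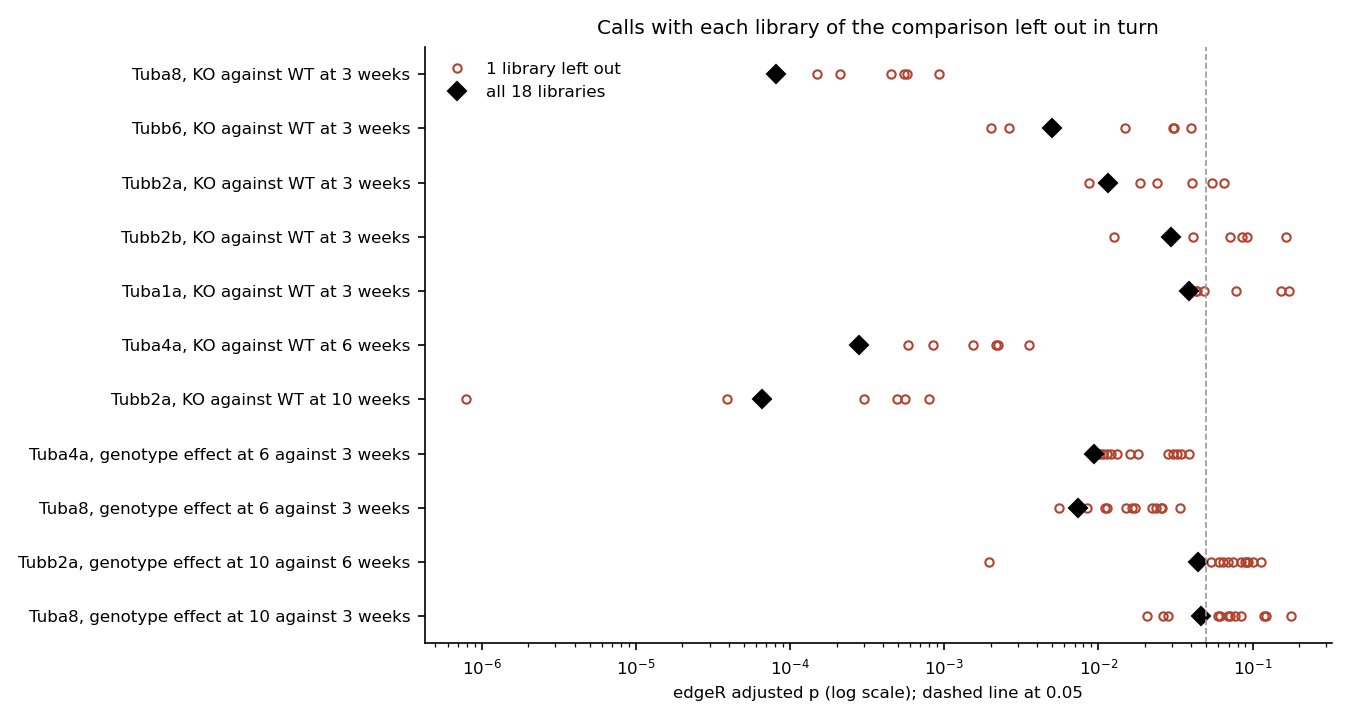
Adjusted p in edgeR (x axis, log scale) for each called comparison of KO with WT and of the genotype effect between ages, with all 18 libraries (diamonds) and with each library of the comparison left out in turn (circles); the dashed line is at 0.05. The circles of Tuba8 and Tubb6 at 3 weeks, Tuba4a at 6 weeks, Tubb2a at 10 weeks and the effects of Tuba4a and Tuba8 at 6 against 3 weeks all lie left of the line.

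No difference between the genotypes in Vash1 or Ttl passed the test at any age. Vash1 (ENSMUSG00000021256, chr12:86678700-86692091, plus strand) had 28.1, 20.4 and 31.7 CPM in KO and 21.75, 27.4 and 30.1 CPM in WT at 3 weeks. It had 11.5, 16.5 and 17.7 CPM in KO and 16.2, 22.04 and 19.5 CPM in WT at 6 weeks, and 15.01, 13.4 and 14.5 CPM in KO and 17.4, 15.7 and 11.6 CPM in WT at 10 weeks. KO and WT overlapped at all 3 ages. The 95% intervals of the log2 fold change, -0.36 to 0.40, -0.73 to 0.06 and -0.46 to 0.34, allow differences up to those sizes in either direction.

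Ttl (ENSMUSG00000027394, chr2:129065942-129096283, plus strand) had 33, 32.2 and 33.3 CPM in KO and 30.3, 36.4 and 36.2 CPM in WT at 3 weeks. It had 32.7, 36.8 and 38.8 CPM in KO and 36.99, 40.2 and 35.6 CPM in WT at 6 weeks, and 36.8, 35.97 and 39.05 CPM in KO and 38.9, 40.4 and 33.8 CPM in WT at 10 weeks. Relative to its level it varied least of the 10 genes over the libraries, and its intervals of -0.28 to 0.16, -0.28 to 0.16 and -0.24 to 0.20 were the narrowest after those of Tuba1a. The adjusted p values for KO against WT in edgeR were 0.958, 0.217 and 0.86 for Vash1 and 0.744, 0.741 and 0.927 for Ttl. Set as a ratio within each library, log2 of Vash1 over Ttl CPM averaged -0.32 ± 0.30, -1.26 ± 0.21 and -1.38 ± 0.08 in KO hearts at 3, 6 and 10 weeks (SD, n = 3). In WT it averaged -0.39 ± 0.11, -0.98 ± 0.19 and -1.36 ± 0.19. The ratio was lower at 6 and 10 weeks than at 3 weeks in both genotypes, and the genotypes overlapped at every age.

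Among the partners, Svbp had 15.25 ± 2.17, 15.5 ± 1.83 and 13.3 ± 0.949 CPM in KO at 3, 6 and 10 weeks and 15.7 ± 1.46, 16.5 ± 1.42 and 12.6 ± 0.789 CPM in WT (SD, n = 3). Its log2 fold changes of -0.04, -0.09 and 0.08 did not pass. The gene of the other detyrosinating enzyme, Matcap1, is listed under its older symbol 4931428F04Rik. It had log2 fold changes of -0.52, -0.33 and -0.56, with adjusted p of 0.17, 0.386 and 0.122, and did not pass either. Vash2, the second vasohibin, was called higher at 10 weeks, 3.95 (SE 1.02, adjusted p = 0.00835). Its values were 2.95, 8.22 and 0 CPM in KO, against 0.247, 0.224 and 0.232 CPM in WT, so 1 KO library was at 0 counts and the groups overlapped. At 3 and 6 weeks no library exceeded 1.89 CPM, and neither difference passed.

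Within the KO hearts, 6 of the 10 genes fell between 3 and 6 weeks, where 11.6% of all genes were called and 6.25% fell. They were Tuba1a (-0.73, SE 0.10, adjusted p = 8.7e-05), Tuba4a (-0.80, SE 0.13, adjusted p = 2.8e-04), Tuba8 (-0.92, SE 0.15, adjusted p = 4.0e-04), Tubb6 (-1.08, SE 0.16, adjusted p = 1.4e-04), Vash1 (-0.81, SE 0.19, adjusted p = 0.00688) and Tubb3 (-1.93, SE 0.62, adjusted p = 0.0483). The first 4 held without any 1 of the 6 libraries. Vash1 lost its call without KO replicate 1 at 6 weeks (adjusted p = 0.0542), and Tubb3 lost it in all 6 such fits. Tubb3 passed the filter on low counts in part through KO libraries at 3 weeks, so its fall is not independent of that filter. Within WT hearts no member was called between these ages by edgeR, 4 had an unadjusted p under 0.05, DESeq2 called 1 and limma voom none, and 5.18% of all genes were called. Markers of dividing cells fell over the same weeks: their sum was 66.9 to 140 CPM at 3 weeks and 9.97 to 16.3 CPM at 6 weeks in KO, and 88.2 to 97.9 CPM and 21.8 to 28.9 CPM in WT. Of those 10 markers, 10 fell in KO and 8 in WT, and their part in the tubulin changes was not tested.

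Between 6 and 10 weeks, 4 members rose in KO, where 12.7% of all genes were called and 6.52% rose. They were Tuba8 (1.08, SE 0.15, adjusted p = 1.3e-04), Tubb4b (0.63, SE 0.13, adjusted p = 0.00291), Tubb2a (0.90, SE 0.27, adjusted p = 0.0386) and Tubb6 (0.51, SE 0.16, adjusted p = 0.0403). Tuba8 and Tubb4b held without any 1 library, while Tubb2a and Tubb6 kept their calls in 1 of 6 fits each, that without KO replicate 3 at 10 weeks, with adjusted p up to 0.154 and 0.17 in the others. Both also lost them without the 3 atrial-rich libraries (adjusted p = 0.164 and 0.142). In WT, Tuba8 rose too (0.64, SE 0.15, adjusted p = 0.0108), where 8.77% of all genes were called and 3.64% rose. That call was lost without WT replicate 1 at 6 weeks (adjusted p = 0.0555) or WT replicate 3 at 10 weeks (0.0846). Tubb3 was also called in WT (2.52, SE 0.71, adjusted p = 0.0296), on 1 to 12 counts a library, and lost its call in all 6 fits. In KO, Tuba8 averaged 397 ± 18.5, 209.8 ± 10.3 and 443 ± 79.15 CPM at 3, 6 and 10 weeks (SD, n = 3), and its values at 3 and 10 weeks overlapped. In WT its mean was higher at each later age, at 196 ± 36.01, 233 ± 9.53 and 362 ± 83.6 CPM, and the first of these steps did not pass.

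Marker levels moved with several of these comparisons. The 10 cardiomyocyte markers summed to 105900 to 109300 CPM in KO and 76090 to 91150 CPM in WT at 3 weeks, where 3 rose and 1 fell. At 6 weeks they overlapped, at 94400 to 108800 CPM in KO and 94780 to 106300 CPM in WT, with 2 higher and 3 lower. At 10 weeks they summed to 119500 to 139300 CPM in KO and 91010 to 100600 CPM in WT, with 3 higher and 1 lower. Myh6 was the largest single part of these sums, with a mean of 46300 CPM in KO and 32590 CPM in WT at 3 weeks. Myh7 averaged 11910 CPM in KO and 1553 CPM in WT at 10 weeks. Other markers went the other way at 3 weeks, such as Tnni3 (2475 against 3098 CPM) and Pln (3205 against 4615 CPM). At 6 weeks, the age at which Tuba4a was lower, the 10 fibroblast markers summed to 2916 to 3643 CPM in KO and 2295 to 2398 CPM in WT, with 7 higher and 1 lower. The 10 endothelial markers then summed to 1207 to 1487 CPM in KO and 1875 to 2065 CPM in WT, with 3 lower and none higher. The 10 markers of dividing cells summed to 9.97 to 16.3 CPM in KO and 21.8 to 28.9 CPM in WT at 6 weeks, with 2 lower and none higher. At 10 weeks, beside the rise of Tubb2a, 5 of 6 epicardial and mesothelial markers were higher, summing to 28.0 to 72.8 CPM in KO and 8.43 to 15.4 CPM in WT. The fibroblast markers then summed to 2378 to 2694 CPM in KO and 1985 to 2215 CPM in WT, with 3 higher and 1 lower. Macrophage markers summed to 208 to 259 CPM in KO and 272 to 317 CPM in WT at 10 weeks, with 4 of 10 lower and none higher. Mural and smooth muscle markers summed to 605 to 719 CPM in KO and 815 to 969 CPM in WT, with 2 higher and 4 lower of 9. At 3 weeks the mural list summed to 697 to 892 CPM in KO and 928 to 1028 CPM in WT, with 1 higher and 2 lower. Red cell markers summed to 938 to 2098 CPM in KO and 2307 to 3914 CPM in WT at that age, with none of 5 called, and the 6 Schwann cell markers to 7.01 to 9.32 CPM in KO and 11.5 to 16.2 CPM in WT, with 1 lower. Epicardial and mesothelial markers summed to 22.5 to 43.8 CPM in KO and 11.6 to 19.5 CPM in WT at 3 weeks, with none called. At 6 weeks the macrophage list summed to 273 to 328 CPM in KO and 347 to 438 CPM in WT, with 1 higher and 2 lower, and the Schwann cell list to 6.51 to 8.81 CPM in KO and 9.29 to 12.7 CPM in WT, with 1 lower. Of all genes tested, 15.3%, 23.8% and 29.3% were called at 3, 6 and 10 weeks. The part of these marker shifts in the tubulin differences was not tested.

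On the per-length scale, the alpha-tubulin messages summed to 583 ± 61.6, 348 ± 14.2 and 483 ± 74.1 RPKM in KO at 3, 6 and 10 weeks and to 412 ± 30.7, 423 ± 16.7 and 447 ± 55.0 RPKM in WT (SD, n = 3). By group mean, Tuba4a and Tuba8 were the most abundant alpha-tubulins in all 6 groups. Tuba4a made up 35.5%, 34.3% and 32.3% of the alpha-tubulin sum in KO at 3 weeks, against 38.5%, 43.0% and 41.2% in WT. Its share was lower in every KO library than in any WT library at 6 weeks as well, 30.7% to 35.2% in KO against 43.7% to 44.4% in WT, and at 10 weeks, 29.5% to 31.3% in KO against 35.5% to 36.6% in WT. Tuba8 held 27.8% to 32.5% in KO and 18.1% to 22.5% in WT at 3 weeks. At 6 weeks its share was 26.4% to 27.0% in KO and 23.8% to 24.6% in WT. At 10 weeks it held 39.7% to 41.6% in KO and 32.7% to 39.8% in WT, which overlap. With 3 libraries against 3, an exact two-sided permutation test cannot give a p below 0.1, and shares of 1 sum are not independent of each other.

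Grouped by last codon, messages of alpha-tubulins that end with tyrosine (Tuba1a, Tuba1b and Tuba1c together) held 34.0%, 37.9% and 35.2% of the alpha-tubulin sum in KO at 3 weeks, against 43.4%, 34.9% and 36.2% in WT. These overlapped. At 6 weeks they held 41.1%, 37.7% and 42.8% in KO, against 32.5%, 31.0% and 31.7% in WT, with every KO library above every WT library. At 10 weeks they held 30.3%, 28.6% and 29.0% in KO and 31.8%, 29.6% and 24.1% in WT, and the groups overlapped again. Tuba1a and Tuba1b themselves did not pass at 6 weeks, where Tuba1c was lower in KO. Of the 50-base stretches of Tuba1a, 75.5% occur in other annotated genes, and 34.6% of those of Tuba4a occur in Stk16. How such reads were counted is not given in the sources used here, so all shares of the alpha-tubulin sum are uncertain.

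Beta-tubulin messages summed to 298 ± 51.4, 212 ± 20.3 and 325 ± 71.0 RPKM in KO at 3, 6 and 10 weeks and to 213 ± 23.9, 218 ± 17.9 and 217 ± 5.86 RPKM in WT (SD, n = 3). Tubb4b came first in every group, with a mean share of 40.8%, 50.9% and 52.1% in KO and 49.5%, 59.3% and 61.9% in WT. Tubb2a held 22.8% ± 4.49, 23.0% ± 1.20 and 27.2% ± 6.41 in KO and 14.9% ± 0.997, 14.7% ± 0.251 and 10.5% ± 1.19 in WT, with no overlap at any age. Of the 50-base stretches of Tubb2a, 49.6% occur in other annotated genes, so its share is uncertain too. The rankings that follow cover members of the set alone, so Tuba1b, Tubb5 and the other tubulins are left out. In order of mean RPKM in KO at 10 weeks, Tuba8 had 196 ± 35.0, Tubb4b 167 ± 22.5, Tuba4a 145.5 ± 20.3, Tubb2a 91.1 ± 40.1, Tuba1a 49.2 ± 4.84 and Tubb6 22.3 ± 4.83. In that order each of the first 4 differed from the next by less than the sum of their SDs, and Tuba1a differed from Tubb6 by more. In WT at 10 weeks Tuba4a had 161 ± 20.8, Tuba8 159.8 ± 37.0, Tubb4b 134 ± 1.79, Tuba1a 49.3 ± 2.90, Tubb2a 22.7 ± 2.74 and Tubb6 18.3 ± 1.09 RPKM. There the first 3 lay within the sum of the SDs of their neighbours, and Tubb2a lay below Tuba1a by more than that sum. Tubb3 came last of the members in every group, below 0.35 RPKM on average. Ttl and Vash1 had 5.53 to 6.34 and 5.51 to 10.3 RPKM on average.

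**Figure D4:**
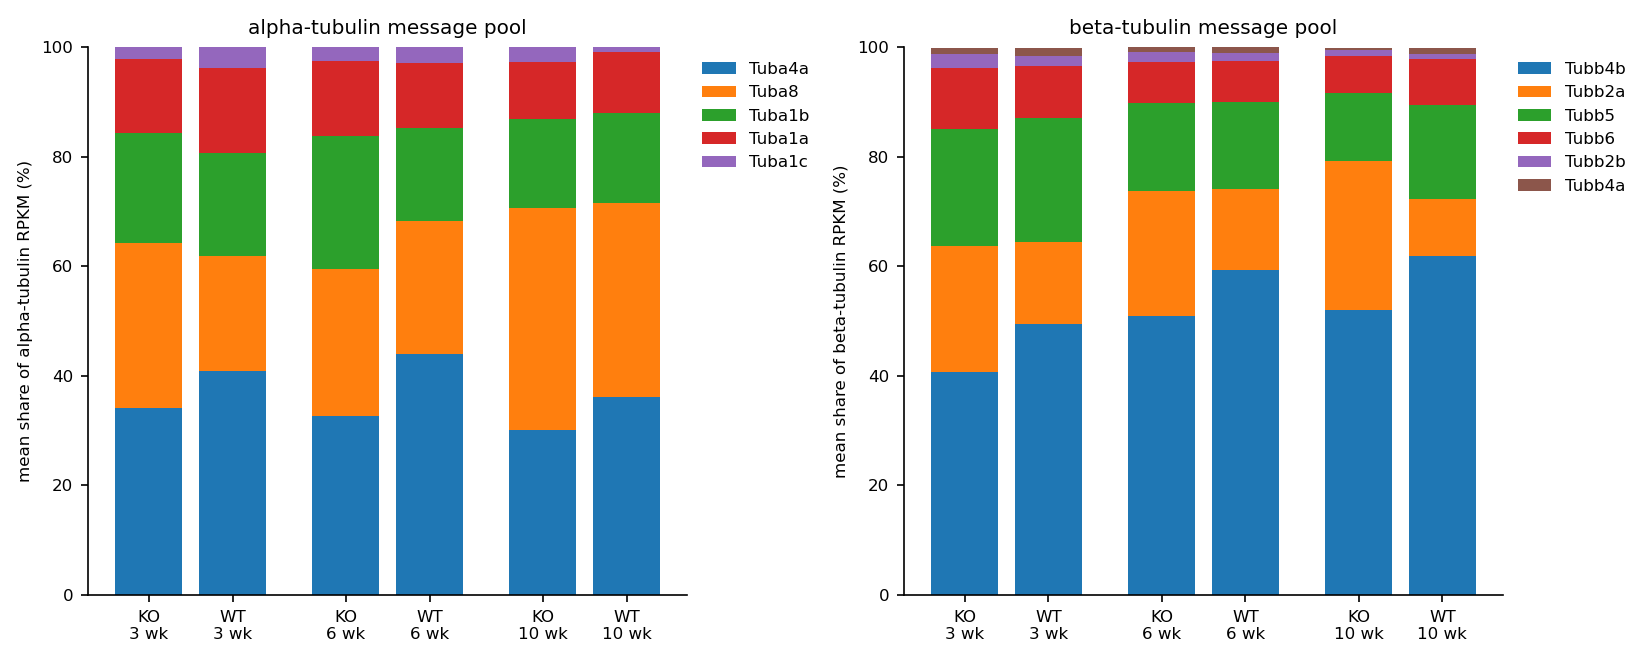
Mean share of each of the more abundant genes (y axis, percent) in the summed RPKM of all alpha-tubulin genes (left) and all beta-tubulin genes (right), for KO and WT at 3, 6 and 10 weeks, 3 libraries a group. The Tuba4a band is narrower in KO than in WT at each age and the Tubb2a band is wider, at 27.2% in KO against 10.5% in WT at 10 weeks.

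Of 9 other tubulin genes tested, 2 rose and 1 fell at 3 weeks, 1 rose and 1 fell at 6 weeks, and 1 rose and 1 fell at 10 weeks. Their median log2 fold changes were 0.24, -0.04 and 0.11. Those of all genes tested, here and for the lists that follow, were 0.00, 0.00 and -0.03. The counts of each list stand beside the 15.3%, 23.8% and 29.3% of all genes called, in either direction, at 3, 6 and 10 weeks. Tuba1b and Tubb5, the most widely expressed alpha- and beta-tubulins, rose at 3 weeks, by 0.60 (SE 0.14, adjusted p = 0.00521) and 0.40 (SE 0.11, adjusted p = 0.0192). They did not pass at 6 weeks (0.24 and -0.04) or at 10 weeks (0.11 and 0.08). The centriolar delta-tubulin gene Tubd1 fell at 3 weeks (-0.48, SE 0.16, adjusted p = 0.0467), the gamma-tubulin gene Tubg2 rose at 6 weeks (1.22, SE 0.29, adjusted p = 0.00324) and Tubb4a fell at 10 weeks (-0.82, SE 0.20, adjusted p = 0.0034).

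Tuba1c, a relative of Tuba1a, had the smallest p of these genes. At 10 weeks it had 24.4, 27.9 and 26.4 CPM in KO, against 8.14, 8.23 and 6.915 CPM in WT, a log2 fold change of 1.75 (SE 0.12, adjusted p = 9.4e-10). At 6 weeks it had 17.6, 15.5 and 19.2 CPM in KO, against 23.1, 26.15 and 22.5 CPM in WT, and was lower, -0.46 (SE 0.12, adjusted p = 0.00583). The groups did not overlap at either age, and the direction differed. The low group was WT at 10 weeks: within WT, Tuba1c fell by 1.62 on the log2 scale between 6 and 10 weeks (adjusted p = 9.5e-09), while within KO it rose by 0.59 (adjusted p = 0.00226). At 3 weeks it had 22.7, 24.98 and 26.6 CPM in KO and 30.7, 32.4 and 29.4 CPM in WT, which did not pass (-0.32, SE 0.11, adjusted p = 0.0629).

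Of 19 other tubulin-modifying enzymes tested, 2, 2 and 4 rose and 1, 1 and 2 fell at 3, 6 and 10 weeks. Their median log2 fold changes were 0.08, 0.18 and 0.02. At each age Ttll7 had the smallest p among those that rose and Ttll1 among those that fell. Ttll7, which adds glutamate chains mainly to beta-tubulin, rose by 1.13 (SE 0.25, adjusted p = 0.00345), 1.56 (SE 0.24, adjusted p = 6.5e-05) and 2.15 (SE 0.24, adjusted p = 1.1e-06). Ttll1, the catalytic subunit of a polyglutamylase complex, fell, with log2 fold changes of -1.01 (SE 0.15, adjusted p = 1.0e-04), -1.67 (SE 0.16, adjusted p = 1.0e-07) and -1.68 (SE 0.16, adjusted p = 7.4e-08). Ttll7 had 24.6, 21.3 and 16.4 CPM in KO and 4.29, 4.31 and 5.46 CPM in WT at 10 weeks, and Ttll1 had 15.7, 17.95 and 24.98 CPM in KO and 59.7, 57.1 and 71.7 CPM in WT. Neither pair overlapped. The tubulin deacetylase gene Hdac6 rose at 3 and 10 weeks (0.40 and 0.67, adjusted p = 0.0382 and 5.1e-04), Agbl3 rose at 6 weeks (0.68, adjusted p = 0.0495) and Ttll4 fell at 10 weeks (-0.37, adjusted p = 0.0347).

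Of 24 tubulin folding and autoregulation genes tested, 1, 3 and 8 rose and 0, 3 and 1 fell at 3, 6 and 10 weeks. The list's median log2 fold changes were 0.13, -0.08 and 0.24. Cct8, a subunit of the chaperonin that folds tubulin and actin, rose at each age (0.52, 0.78 and 0.84), and Cct6a, another subunit, at 10 weeks (0.52). The tubulin cofactor gene Tbcd rose at 6 weeks (0.45). The prefoldin genes Pfdn6 and Pfdn5 fell at 6 weeks (-0.55 and -0.43), and Pfdn6 also at 10 weeks (-0.34). Adjusted p in edgeR ran from 8.2e-04 to 0.0494 over these calls.

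Of 35 microtubule-associated protein genes tested, 7, 12 and 10 rose and 1, 5 and 3 fell at 3, 6 and 10 weeks, with median log2 fold changes of 0.22, 0.15 and 0.18. Mapt, which encodes tau, a protein that binds along microtubules, rose by 0.72, 0.63 and 1.25. At 10 weeks it had 192, 264 and 268.5 CPM in KO, against 95.4, 108 and 100.5 CPM in WT, with no overlap (adjusted p = 2.5e-07). Map4, the main microtubule-binding protein outside neurons, rose at 10 weeks (0.82, SE 0.11, adjusted p = 6.2e-06). Mapre2, of the plus-end tracking EB family, rose at 3 weeks (0.63) and Mtus2 at 6 weeks (0.65). The stathmin gene Stmn2 fell at 3 and 6 weeks (-1.12 and -0.89), Stmn1 at 6 weeks (-0.73), and Tppp and Dclk2 at 10 weeks (-1.55 and -0.62); the stathmins bind free tubulin dimers. Adjusted p in edgeR ran from 2.5e-07 to 0.0304 over the calls named here.

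Of 33 motor genes tested, 4, 4 and 9 rose and 1, 3 and 3 fell at 3, 6 and 10 weeks, with median log2 fold changes of 0.02, 0.00 and 0.15. The kinesin gene Kif1a rose by 2.43, 2.42 and 3.10, and the kinesin gene Kif5c fell, with log2 fold changes of -1.76, -1.94 and -1.88. Both were low genes: at 10 weeks Kif1a had 6.875, 9.01 and 7.24 CPM in KO and 0.5425, 0.840 and 1.34 CPM in WT, and Kif5c had 3.37, 2.42 and 1.40 CPM in KO and 9.025, 8.46 and 8.72 CPM in WT. Dync1li1, a light intermediate chain of dynein, rose at 3 and 10 weeks (0.47 and 0.83), and Kif3c rose at 6 weeks (0.77). Dctn3, a dynactin subunit, fell at 6 weeks (-0.41), and Kif2a at 10 weeks (-0.43). Of 23 nucleation and severing genes tested, 0, 1 and 1 rose and 2, 0 and 3 fell at 3, 6 and 10 weeks, with medians of 0.04, 0.00 and -0.02. The severing enzyme gene Fign fell at 3 and 10 weeks (-1.05 and -1.81), Mzt1 at 3 weeks (-0.57) and Tubgcp3 at 10 weeks (-0.33), while Spast rose at 6 weeks (0.28) and Camsap1 at 10 weeks (0.66).

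Across the 18 libraries, some pairs of members varied together. Pearson's r of log2 CPM was 0.793 for Tuba1a and Tubb6 and 0.714 for Tuba1a and Tubb2b, and 0.456 and 0.493 after the group means were removed. For Tuba8 and Tubb3 it was 0.767, and 0.234 after the group means were removed. Other pairs were higher after that step than before it: Tuba4a and Tuba8 at 0.851 after and 0.329 before, Tubb4b and Tubb6 at 0.821 and 0.293, Tubb2a and Tubb2b at 0.802 and 0.665, and Vash1 and Ttl at 0.792 and -0.163. These values describe libraries that share genotype, age and depth. Among 11442 other genes averaging at least 2 CPM, the 2 most like Tuba8 were Alpl, which encodes alkaline phosphatase (r = 0.963), and Furin, a proprotein convertase gene (0.882). The 2 most like Tubb2a were Sbno2 (0.953) and Tgm2, a transglutaminase gene (0.946). For Tubb2b they were the matrix genes Tnc (0.922) and Vcan (0.907), for Tubb6 Tubb5 (0.888) and Itgb3 (0.860), and for Vash1 Lama4 (0.932) and Papln (0.929). No member was called in all 3 KO against WT comparisons, so these were named after their values were seen.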

How the data were processed

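Gene counts of 18 libraries were used as the authors deposited them: whole-number counts per Ensembl gene, not normalized, 1 table per library. Per the labels' protocols, an RNeasy Plus Universal Mini kit was used for extraction and an NEBNext Ultra II RNA kit for the libraries. Per the submitters' processing notes, the tools were Trimmomatic 0.36, STAR 2.5.2b and featureCounts of Subread 1.5.2, with the GRCm38 build. The strand setting, the annotation and the treatment of reads with several matches are not given in the sources used here, which matters for the near-identical and overlapping tubulin genes.

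Gene IDs were matched to symbols with GENCODE M21 (49056 of 49315 matched). Genes were kept with edgeR's filterByExpr (minimum count 10, minimum total 15), which left 15778. All 6 groups were fitted together in edgeR 4.0.16 (R 4.3.3) with TMM scaling (factors 0.847 to 1.08) and the quasi-likelihood test. Adjusted p values are Benjamini-Hochberg over all genes tested within each of 10 contrasts, and a call is an adjusted p under 0.05. CPM are counts relative to the TMM-scaled total, and RPKM divides by the gene length that the deposited tables list. The gene models of Tuba1a, Tubb2a, Tubb2b and Tubb6 in those tables have other bounds than in GENCODE M21. Fold changes are KO over WT, or later over earlier age. The script was tested on simulated counts. The range of depth over the libraries is given with the results.

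The alternatives were DESeq2 1.42.0, limma 3.58.1 (voom), other scalings, no filter, a replicate block, fits to fewer libraries and each library left out in turn. All 10 members were described. From other lists, up to 2 called genes in each direction were named per list and KO against WT comparison, by smallest p, leaving out genes with only a clone-style name, and Vash2, Svbp, Matcap1, Tuba1b, Tuba1c and Tubb5 always. Shared sequence was counted as 50-base stretches of exons found in other annotated genes. The members and lists were chosen with earlier results of these data known. Some sequence is not reported here.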

Additional observations from a re-analysis of the deposited data

Results flagged for a closer look

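The genotype effect, meaning the log2 fold change of KO over WT, differed between ages for 3 members and for Tuba1c in a test of the difference itself (edgeR, adjusted over all 15778 genes). For Tuba4a the effect at 6 weeks minus that at 3 weeks was -0.94 (SE 0.18, adjusted p = 0.00941). For Tuba8 the same difference was -1.17 (SE 0.21, adjusted p = 0.00742), and that of 10 minus 3 weeks was -0.73 (SE 0.21, adjusted p = 0.0465). For Tubb2a it was higher at 10 than at 6 weeks by 1.40 (SE 0.38, adjusted p = 0.0443). For Tuba1c it was higher at 10 than at 6 weeks by 2.21 (SE 0.17, adjusted p = 3.3e-08) and higher at 10 than at 3 weeks by 2.07 (SE 0.17, adjusted p = 6.9e-08). Those of Tuba4a and Tuba8 at 6 against 3 weeks held without any 1 library, the -0.73 of Tuba8 held in 3 of 12 such fits and that of Tubb2a in 1 of 12. Without 1 library was not computed for Tuba1c.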

How the results depend on the processing

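Numbers of members called moved by over 1.5 times under these settings, beside 1, 1 and 1 for KO against WT at 6 weeks, KO against WT at 10 weeks and the genotype effect at 10 against 6 weeks, 1 for that effect at 10 against 3 weeks, 4 for KO at 10 against 6 weeks, 0 for WT at 6 against 3 weeks and 2 for WT at 10 against 6 weeks. With DESeq2 size factors they were 2 at 10 weeks and 0 for the effect at 10 against 3 weeks, and with library totals 2 at 6 weeks, 2 for KO at 10 against 6 weeks and 1 for WT at 6 against 3 weeks. With no filter they were 2 at 6 weeks, 2 at 10 weeks, 3 and 2 for the effects at 10 against 6 and 3 weeks and 4 for WT at 10 against 6 weeks. Without mitochondrially encoded genes the effect at 10 against 3 weeks had 0. Without libraries above 50 CPM of Myl4 there were 2 at 10 weeks, 0 for both of these effects and 2 for KO at 10 against 6 weeks. DESeq2's Wald test gave 3 at 10 weeks, 3 for the effect at 10 against 6 weeks and 1 for WT at 6 against 3 weeks, and limma voom 0 for that effect and 2 for KO at 10 against 6 weeks. Fits to the libraries of a comparison alone gave 2 at 6 weeks, 2 at 10 weeks, 0 for the effect at 10 against 3 weeks, 2 for KO at 10 against 6 weeks and 1 for WT at 6 against 3 weeks. Replicate numbers do not pair the samples: same-numbered KO and WT libraries had correlations of their deviations between -0.084 and 0.085. With the replicate block, 2362, 3717 and 4557 genes were called for KO against WT at 3, 6 and 10 weeks, beside 2419, 3751 and 4625 without it. Members called were then 5, 1 and 2, since Tubb2b passed at 10 weeks (0.832, adjusted p = 0.0179). Leaving out 1 library at a time gave 2 to 5, 1 to 1 and 1 to 4 members for KO against WT at 3, 6 and 10 weeks. It gave 2 to 3, 0 to 3 and 0 to 1 for the effects at 6 against 3, 10 against 6 and 10 against 3 weeks, 4 to 6 and 2 to 5 for KO at 6 against 3 and 10 against 6 weeks, and 0 to 0 and 0 to 1 in WT. Genes called then ran from 1309 (without WT replicate 1) to 2542 at 3 weeks, 2653 to 3377 at 6 weeks and 3511 to 4787 at 10 weeks. The only directions that turned were of differences that did not pass. At 10 weeks Tuba1a was 0.033, 0.014, 0.007, 0.032 and 0.016 and Ttl 0.019, 0.000, 0.016, 0.018 and 0.002 with DESeq2 size factors, no mitochondrial genes, no Myl4-rich libraries, DESeq2's Wald test and the libraries of the comparison. With library totals Vash1 at 3 weeks was -0.001 and Tubb6 and Ttl at 6 weeks were 0.025 and 0.025, and without the Myl4-rich libraries Vash1 at 3 weeks was -0.124 and Tubb3 at 10 weeks -0.378. Without 1 library, Vash1 ran from -0.115 to 0.183 at 3 weeks and -0.193 to 0.071 at 10 weeks, Ttl from -0.115 to 0.018 and -0.074 to 0.035 at 6 and 10 weeks, Tubb6 from -0.138 to 0.090 at 6 weeks, Tuba1a from -0.049 to 0.095 and Tubb3 from -0.366 to 0.560 at 10 weeks. The cause of these shifts was not tested. With 3 libraries a group, small differences such as that of Tuba1a at 3 weeks lost their call in some of these fits. Tubb3 rests on 1 to 16 counts a library.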
